A study of Homo sapiens with 6 samples.

Results

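The 51 genes described here encode the machinery that licenses replication origins and copies DNA at the fork, together with factors that supply nucleotides and pack the new strands into chromatin. They were taken as a list of symbols by their known roles, but with earlier results of these data known, so the list was given no test of its own. All 51 were found among the 58825 Ensembl gene identifiers of the deposited count table and were among the 19081 genes tested. The cells were FaDu, an established human line of squamous carcinoma from the hypopharynx. One group of 3 libraries came from FaDu cells expressing a short hairpin RNA against NSUN2 (labelled shNSUN2), and the other group of 3 from FaDu cells whose label gives the hairpin as none (labelled FaDu). NSUN2 is an RNA methyltransferase that makes 5-methylcytosine. The design text speaks of 3 pairs without saying what a pair shares. The labels name neither a control hairpin nor clones or the time after delivery, so loss of NSUN2 and the presence of a hairpin cannot be told apart. They also do not say that replicates were separate cultures, so p-values measure the spread between libraries, which may be technical.

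In each cell cycle an origin is first licensed in G1 phase: the origin recognition complex (ORC) binds DNA and, with CDC6 and CDT1, loads the ring of MCM2 to MCM7 that will be the helicase. At the start of S phase CDC45 and the GINS complex join the ring and activate it, and geminin holds CDT1 back so that no origin is licensed again. Polymerase alpha-primase then starts each strand, the clamp loader RFC places the clamp PCNA, polymerases delta and epsilon extend, and FEN1 and LIG1 join the fragments of the lagging strand. Many of these genes are textbook targets of E2F transcription factors, which switch them on at the passage from G1 into S phase.

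Of the 51 genes, 39 rose in shNSUN2 and none fell, against 8.54% of all tested genes called higher and 9.97% called lower (edgeR quasi-likelihood test with Benjamini-Hochberg adjustment over all 19081 genes, called at an adjusted p under 0.05). The median log2 fold change of the 51 was 0.89, beside -0.01 over all genes tested. Among the 8884 genes whose mean level lay within the range of these 51, 13.6% were called higher, 8.68% were called lower and the median was 0.12. Every shNSUN2 library lay above every FaDu library in 45 of the 51 genes, whereas 20.3% of all tested genes showed that separation and 22.1% the opposite one, which none of the 51 showed. The exceptions were GINS3, ORC3, RFC1, RFC2, RPA3 and TK1, in which the groups overlapped. The called rise was at least 2-fold in 17 genes, a count for which the share of all tested genes is not given. The libraries held bulk RNA, so a larger share of cells in S phase and more of these RNAs per cell cannot be told apart.

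**Figure D1:**
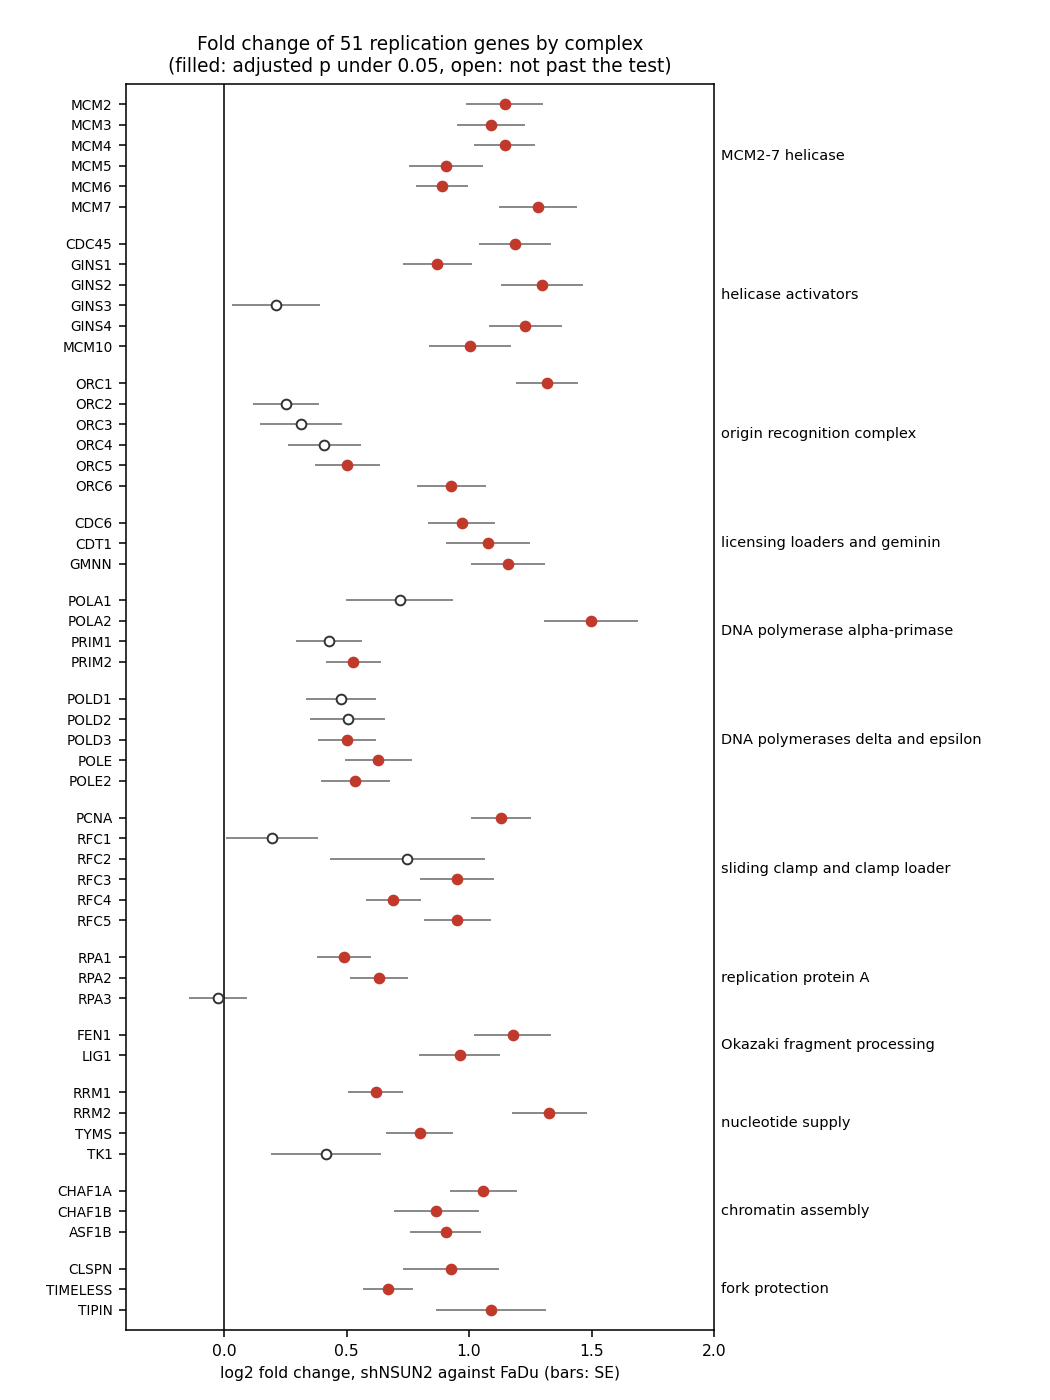
Log2 fold change of each of the 51 genes in shNSUN2 against FaDu (horizontal axis), with its SE as a bar, grouped by complex along the vertical axis. Filled points passed the test and open points did not. The 6 MCM2-7 subunits sit between 0.89 and 1.28, whereas GINS3, ORC2, ORC3, RFC1 and RPA3 sit between -0.02 and 0.32.

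Promoter windows are shown first, because so many of the genes moved in one direction. The windows come from RefSeq on GRCh38.p14 and run from 250 bases before to 50 bases after a gene's start. Of the 51 genes 45 had a window, 57 windows in all, since some genes have several starts. The E2F consensus was searched on both strands as the words TTTCCCGC, TTTGGCGC, TTTGCCGC and TTTCGCGC, whose matches may overlap each other. At least one word was present in 21 of the 57 windows (36.8%) and in 3.31% of the 35116 windows of all genes. By gene, 18 of 34 called higher (52.9%) and 3 of 11 not called (27.3%) had a word in at least one window, a difference that was not tested. Over all 27305 genes with a window the share was 3.99%, so both groups of the 51 genes were above it. A match describes letters and not binding, and no match says only that these words are not in this window. Below are 6 windows with a match, from genes of the helicase ring (MCM3 and MCM6), its activation, its loading, priming and the clamp, and that of ORC1, the ORC gene with the largest rise, which had none. Capitals mark the E2F words or their reverse complements, and each is written 5′ to 3′ on the gene's strand.

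MCM3, chr6:52284693-52284992 (- strand): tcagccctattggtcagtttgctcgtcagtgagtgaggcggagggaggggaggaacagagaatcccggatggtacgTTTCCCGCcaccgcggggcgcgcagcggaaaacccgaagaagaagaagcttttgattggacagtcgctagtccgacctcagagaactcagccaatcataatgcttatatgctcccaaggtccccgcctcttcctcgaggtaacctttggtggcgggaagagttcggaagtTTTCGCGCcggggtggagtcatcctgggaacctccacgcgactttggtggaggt
MCM6, chr2:135876394-135876693 (- strand): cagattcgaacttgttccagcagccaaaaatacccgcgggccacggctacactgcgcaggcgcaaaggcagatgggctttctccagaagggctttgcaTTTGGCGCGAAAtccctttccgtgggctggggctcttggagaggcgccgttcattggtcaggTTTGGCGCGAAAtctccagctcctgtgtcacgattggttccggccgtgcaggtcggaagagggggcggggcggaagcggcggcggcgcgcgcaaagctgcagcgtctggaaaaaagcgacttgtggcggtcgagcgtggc
GINS2, chr16:85688905-85689204 (- strand): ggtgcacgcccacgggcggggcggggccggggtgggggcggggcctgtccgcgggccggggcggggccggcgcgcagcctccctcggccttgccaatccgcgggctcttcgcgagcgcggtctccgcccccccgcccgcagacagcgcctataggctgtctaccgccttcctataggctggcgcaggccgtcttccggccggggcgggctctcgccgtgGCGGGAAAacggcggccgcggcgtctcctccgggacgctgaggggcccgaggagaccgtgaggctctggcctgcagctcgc
POLA2, chr11:65261712-65262011 (+ strand): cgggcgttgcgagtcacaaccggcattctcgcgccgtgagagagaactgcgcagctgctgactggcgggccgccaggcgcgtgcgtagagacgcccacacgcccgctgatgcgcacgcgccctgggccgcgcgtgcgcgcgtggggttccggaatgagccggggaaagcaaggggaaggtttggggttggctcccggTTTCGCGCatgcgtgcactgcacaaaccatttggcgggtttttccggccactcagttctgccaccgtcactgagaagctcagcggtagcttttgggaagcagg
PCNA, chr20:5126573-5126872 (- strand): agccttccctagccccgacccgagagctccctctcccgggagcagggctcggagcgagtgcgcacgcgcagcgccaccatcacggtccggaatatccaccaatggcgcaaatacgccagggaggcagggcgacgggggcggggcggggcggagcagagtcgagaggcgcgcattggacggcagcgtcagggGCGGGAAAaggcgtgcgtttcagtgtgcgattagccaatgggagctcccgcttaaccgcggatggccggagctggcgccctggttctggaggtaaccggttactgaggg
CDC6, chr17:40287629-40287928 (+ strand): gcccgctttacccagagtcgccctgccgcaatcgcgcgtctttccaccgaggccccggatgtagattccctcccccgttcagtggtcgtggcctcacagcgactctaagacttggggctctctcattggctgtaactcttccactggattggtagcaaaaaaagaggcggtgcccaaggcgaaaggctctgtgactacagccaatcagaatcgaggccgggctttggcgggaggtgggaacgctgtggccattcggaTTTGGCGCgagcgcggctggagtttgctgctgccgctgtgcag
ORC1, chr1:52404374-52404673 (- strand): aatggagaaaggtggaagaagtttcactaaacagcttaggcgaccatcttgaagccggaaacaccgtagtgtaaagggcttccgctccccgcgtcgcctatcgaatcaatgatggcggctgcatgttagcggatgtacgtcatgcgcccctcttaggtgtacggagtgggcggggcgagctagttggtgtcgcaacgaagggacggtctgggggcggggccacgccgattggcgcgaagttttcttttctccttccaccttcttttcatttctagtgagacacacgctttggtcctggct

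The MCM6 window held 4 matches, beginning 152, 148, 90 and 86 bases before the start. In MCM3 the words began 174 and 4 bases before the start, in POLA2 53, in PCNA 59 and in GINS2 31 bases before it, and in CDC6 7 bases after it. Other short promoter words were also counted on both strands. CCAAT was in 59.6% of the 57 windows against 34.6% of all windows, and GGGCGG, the SP1 box, in 75.4% against 44.95%. TTTGAA or TTCGAA, forms of the cell cycle element CHR of mitotic genes, were in 3 of the 57 windows (5.26%) against 16.4% of all windows. By gene, CCAAT was in 22 of 34 called higher (64.7%) and 7 of 11 not called (63.6%). The SP1 box was in 25 of 34 (73.5%) and 10 of 11 (90.9%), and the CHR forms in 3 of 34 (8.82%) and 0 of 11. Over all genes with a window these shares were 39.7%, 48.3% and 19.5%. The windows of all genes included genes that were not tested and were not matched to the 57 in base composition. These differences, and that of the E2F words, were not tested.

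The hairpin's target was checked first. NSUN2 stood at 169, 173 and 156 CPM in FaDu replicates 1, 2 and 3 and at 50.4, 34.7 and 39.6 CPM in shNSUN2, where CPM are estimated counts scaled to library size; values below keep this order. The shNSUN2 mean was 25.1% of the FaDu mean, with an edgeR adjusted p of 0.000526 and a two-sided exact permutation p of 0.1, which is the smallest possible with 3 against 3. Library totals ran from 53612358 to 72788971 estimated counts, and the lowest value of any of the 51 genes in any library was 511 (POLE2). Markers of other cells moved with the groups. Prostate markers summed to 27.9 to 30.1 CPM in FaDu and 51.3 to 60.1 in shNSUN2, with 5 of 9 matched markers called higher, 1 lower and KLK4, MSMB and TGM4 at 0 in every FaDu library. TGM4 was not tested. Plasma and B cell markers summed to 0 to 0.267 CPM in FaDu and to 5.11, 1.90 and 2.07 CPM in shNSUN2 replicates 1, 2 and 3. Of these 8 only IGKC, IGHA1 and IGHG1 were tested, all called higher, and MS4A1 was at 0 throughout. T cell and myeloid markers summed to 31.3 to 51.6 and 38.0 to 46.2 CPM. Of these 8 only CD68 and CD14 were tested, neither was called, and PTPRC and CD3D were at 0 throughout. Fibroblast and smooth muscle markers summed to 17.7 to 21.3 and 10.2 to 23.6 CPM (2 of 8 called higher, 1 lower, DCN not tested). COL1A2 and DES were called higher, and ACTA2, called lower, had means of 8.93 and 2.78 CPM. Endothelial markers summed to 39.4 to 45.1 and 17.5 to 23.2 CPM, most of it from EGFL7. Of these 6 only EGFL7 (means 38.4 and 15.8 CPM, called lower) and VWF (3.33 and 3.68 CPM, not called) were tested. PECAM1, KDR, TEK and CLDN5 had means of at most 0.151 CPM in either group. Squamous markers summed to 5677 to 5775 CPM in FaDu and 3608 to 4068 in shNSUN2 (6 of 10 called lower, 1 higher, none at 0). Some of these transcripts were highest in shNSUN2 replicate 1 (values picked after they were seen). In shNSUN2, IGKC had 2.87, 0.505 and 0.844 CPM, MSMB 3.92, 0.488 and 0.281 CPM and DES 2.75, 0.455 and 0.459 CPM. Others were not, such as IGHA1 at 0.443, 0.741 and 1.01 CPM. The part of other cells in the results below was not tested.

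All 6 subunits of the MCM2-7 helicase rose, with log2 folds of 0.89 to 1.28 and no overlap between groups in any of them. These proteins form the ring that unwinds DNA ahead of the fork. MCM4 had 327, 289 and 283 CPM in FaDu and 729, 582 and 677 CPM in shNSUN2. Every shNSUN2 library was above every FaDu library, and the log2 fold was 1.15 (SE 0.13, edgeR adjusted p = 0.00156). MCM6 had 90.01, 88.4 and 87.7 CPM against 171, 169 and 153 CPM. Its FaDu libraries lay close together and the log2 fold was 0.89 (SE 0.11, edgeR adjusted p = 0.00208). MCM5, with the largest adjusted p of the ring, had 136, 119 and 118 CPM in FaDu and 218, 200.5 and 279.7 CPM in shNSUN2. Its log2 fold was 0.91 (SE 0.15, edgeR adjusted p = 0.00705), and shNSUN2 replicate 3 was the highest library. MCM7 had the largest rise of the ring, from 206 ± 17.9 to 502 ± 101 CPM (SD, n = 3), and MCM2 and MCM3 had log2 folds of 1.15 and 1.09.

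Although the ring holds the subunits in equal number, their RNA levels per length were unequal. Per kilobase of exon, the FaDu means ran from MCM7 at 47.1 ± 4.07 and MCM4 at 42.97 ± 3.49, through MCM3 at 39.6 ± 4.12 and MCM2 at 38.6 ± 2.12, to MCM6 at 21.5 ± 0.291 and MCM5 at 16.9 ± 1.36 CPM per kilobase (SD, n = 3). Neighbours among the first 4 differed by about 1 SD or less, whereas MCM6 and MCM5 lay apart from these and from each other. The length is that of all annotated exons of a gene, which overstates the mature mRNA of genes with many variants. It was 7338 bases for MCM5 and 4118 for MCM6. Without it their order reversed, at FaDu means of 124 CPM for MCM5 and 88.7 CPM for MCM6. In shNSUN2 the order was MCM7, MCM4, MCM2, MCM3, MCM6 and MCM5, at 114, 95.03, 85.3, 84.1, 39.9 and 31.7 CPM per kilobase.

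Of the 6 factors that turn the ring into the active helicase, 5 rose and GINS3 did not pass the test. GINS4, a subunit of the 4-part GINS complex, had 32.3, 32.95 and 26.4 CPM in FaDu and 66.2, 66.8 and 81.9 CPM in shNSUN2, without overlap (log2 fold 1.23, SE 0.15, edgeR adjusted p = 0.00211). CDC45, which bridges the ring and GINS, had 18.8, 20.2 and 16.7 CPM against 41.3, 37.3 and 48.1 CPM (log2 fold 1.19, SE 0.15, edgeR adjusted p = 0.00237). GINS2 and GINS1 had log2 folds of 1.298 and 0.87, and MCM10, a scaffold for helicase activation, 1.004. GINS3 stood apart from its partners: it had 42.9, 41.5 and 34.2 CPM in FaDu and 45.8, 36.1 and 55.6 CPM in shNSUN2. The groups overlapped and the log2 fold was 0.21 (SE 0.18, edgeR adjusted p = 0.455). Per length, the ratio of GINS3 to GINS2, a pair chosen after the values were seen, was 0.63, 0.708 and 0.654 in FaDu and 0.322, 0.289 and 0.321 in shNSUN2.

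**Figure D2:**
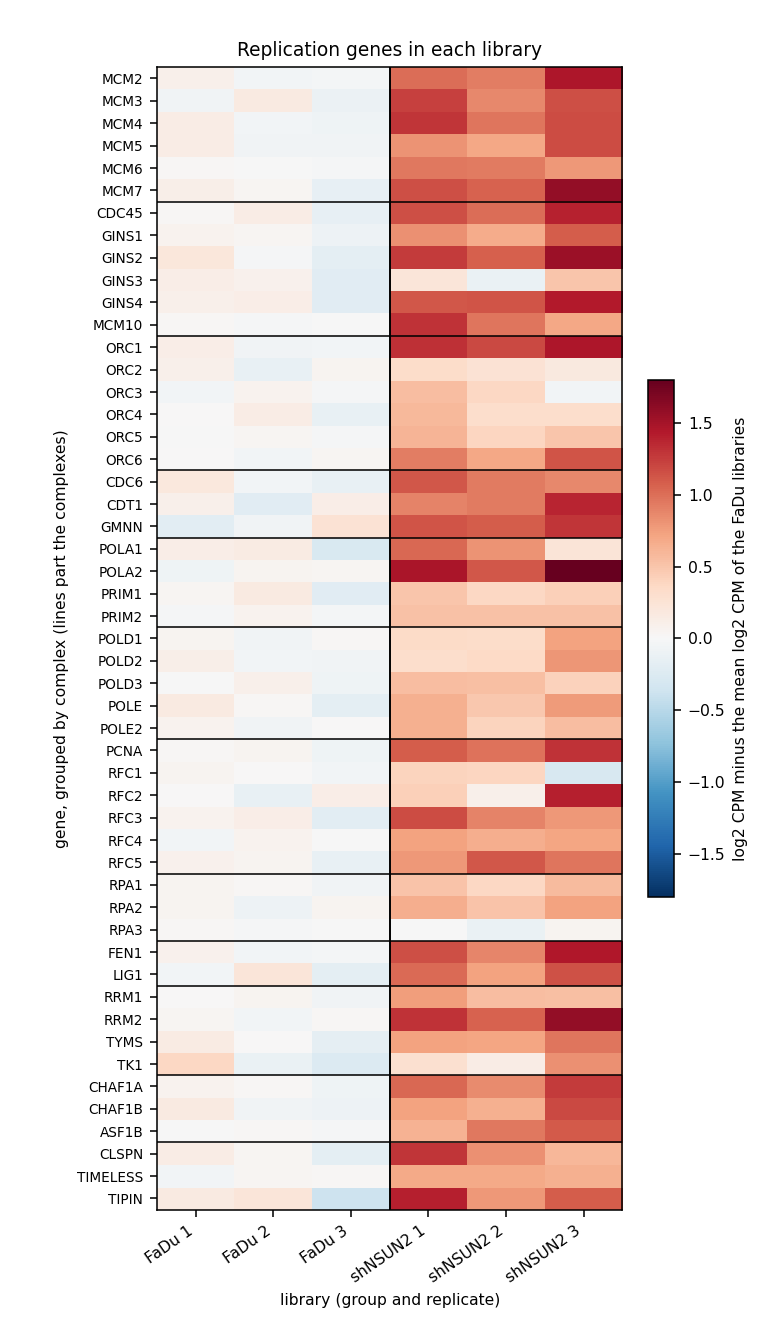
Each cell is the log2 CPM of a gene (vertical axis, in complexes parted by lines) in a library (horizontal axis) minus that gene's mean log2 CPM over the FaDu libraries. The shNSUN2 medians over the 51 genes are 0.81, 0.71 and 0.87 in replicates 1, 2 and 3, and rows such as RPA3, GINS3 and ORC2 stay pale.

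The origin recognition complex moved unevenly, with ORC1, ORC5 and ORC6 called higher and ORC2, ORC3 and ORC4 not past the test. ORC1, the subunit whose protein is cycle-regulated in human cells, had 46.0, 40.4 and 40.7 CPM in FaDu and 105, 96.6 and 116 CPM in shNSUN2. The groups lay well apart (log2 fold 1.32, SE 0.13, edgeR adjusted p = 0.000923), the smallest adjusted p of the 51 genes. ORC6 had 52.9, 50.97 and 53.9 CPM against 99.8, 84.8 and 116 CPM (log2 fold 0.93, SE 0.14, edgeR adjusted p = 0.0049). ORC2, with the largest adjusted p of the complex, had 18.2, 15.6 and 17.8 CPM in FaDu and 21.6, 20.6 and 19.3 CPM in shNSUN2. These groups did not overlap, but the log2 fold of 0.25 (SE 0.13) did not pass the test (edgeR adjusted p = 0.228). ORC3 and ORC4 had log2 folds of 0.32 and 0.41, and ORC5 of 0.504. ORC3 was called without shNSUN2 replicate 3 (0.47, edgeR adjusted p = 0.0202), and ORC5 lost its call without any 1 of the FaDu libraries or shNSUN2 replicate 1. The ratio of ORC1 to ORC2 per length, a pair also chosen after the values were seen, was 4.66, 4.80 and 4.23 in FaDu and 8.97, 8.67 and 11.1 in shNSUN2.

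The 3 genes that load the ring or restrain its loading all rose by similar amounts. GMNN, which encodes geminin, had 22.7, 24.8 and 30.8 CPM in FaDu and 56.9, 55.0 and 62.9 CPM in shNSUN2 (log2 fold 1.16, SE 0.15, edgeR adjusted p = 0.00277). CDT1, the protein that geminin binds, rose from 29.2 ± 3.39 to 61.5 ± 12.02 CPM and CDC6, an ATPase that joins ORC, from 58.8 ± 7.01 to 115 ± 10.8 CPM (SD, n = 3). The ratio of CDT1 to GMNN per length was 1.01, 0.758 and 0.756 in FaDu and 0.703, 0.746 and 0.89 in shNSUN2, with overlap. So the balance of loader and inhibitor RNA did not separate the groups.

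Of the 4 subunits of DNA polymerase alpha-primase, POLA2 and PRIM2 rose and POLA1 and PRIM1 did not pass the test. POLA2, the regulatory B subunit, had 13.4, 14.7 and 14.5 CPM in FaDu and 39.2, 30.7 and 50.5 CPM in shNSUN2. Its log2 fold of 1.499 (SE 0.19, edgeR adjusted p = 0.0026) was the largest of the 51 genes. PRIM2, the large primase subunit, had 24.7, 26.2 and 24.4 CPM against 36.3, 36.1 and 36.2 CPM (log2 fold 0.53, SE 0.11, edgeR adjusted p = 0.0174). Its shNSUN2 libraries had an SD of 0.089 CPM, and the call was lost without any 1 of the FaDu libraries. PRIM1, the catalytic primase subunit, had 29.9, 32.7 and 25.3 CPM in FaDu and 41.2, 37.7 and 39.3 CPM in shNSUN2. The groups did not overlap and the log2 fold was 0.43 (SE 0.14, edgeR adjusted p = 0.0634). POLA1, the catalytic polymerase subunit, had 64.2, 54.8 and 37.0 CPM in shNSUN2 replicates 1, 2 and 3 (values picked after they were seen). Its log2 fold was 0.72 (edgeR adjusted p = 0.0567), and without shNSUN2 replicate 3 it was called, at 0.91 (adjusted p = 0.00874).

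The 5 listed subunits of polymerases delta and epsilon, the enzymes that copy most of the lagging and leading strands, had smaller and even folds of 0.48 to 0.63 on the log2 scale. All 5 were without overlap between groups, and POLE, POLE2 and POLD3 were called. POLE, the catalytic subunit of polymerase epsilon, had 97.3, 87.8 and 76.6 CPM in FaDu and 135, 122 and 148 CPM in shNSUN2 (log2 fold 0.63, SE 0.14, edgeR adjusted p = 0.018). POLD3 had 35.7, 38.3 and 33.9 CPM against 52.8, 52.0 and 47.9 CPM (log2 fold 0.502, SE 0.12, edgeR adjusted p = 0.023). POLD2, an accessory subunit of polymerase delta, had 101, 91.2 and 90.3 CPM in FaDu and 118, 121 and 163 CPM in shNSUN2 (log2 fold 0.51, SE 0.15, edgeR adjusted p = 0.0549). The catalytic POLD1 was also just outside the threshold, at a log2 fold of 0.48 (edgeR adjusted p = 0.0516). Both were called without shNSUN2 replicate 3 (adjusted p = 0.0323 and 0.0281), whereas POLE lost its call without FaDu replicate 2 or 3 or shNSUN2 replicate 1, and POLD3 and POLE2 without any of these or FaDu replicate 1. Of the 5 genes none was called without FaDu replicate 2 or 3 or shNSUN2 replicate 1, and all 5 were called without shNSUN2 replicate 3.

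The clamp PCNA rose together with the clamp loader subunits RFC3, RFC4 and RFC5, while RFC1 and RFC2 did not pass the test. PCNA, the ring that tethers polymerases to DNA, had 104, 106 and 96.97 CPM in FaDu and 219, 202 and 253 CPM in shNSUN2 (log2 fold 1.13, SE 0.12, edgeR adjusted p = 0.00152). RFC5 had 44.1, 43.2 and 37.8 CPM against 71.3, 89.9 and 80.9 CPM (log2 fold 0.95, SE 0.14, edgeR adjusted p = 0.00392). RFC1, the large subunit that is particular to the canonical loader, had 98.8, 95.7 and 92.04 CPM in FaDu and 126, 124 and 78.1 CPM in shNSUN2. Replicate 3 alone was below the FaDu libraries, and the log2 fold was 0.196 (SE 0.19, edgeR adjusted p = 0.508). Without that library it was 0.39 and was called (adjusted p = 0.0139). RFC2 depended on the same library in the other direction: it had 57.1, 44.9 and 112 CPM in shNSUN2 (values picked after they were seen), and its log2 fold of 0.75 became 0.27 without replicate 3, uncalled in both fits (edgeR adjusted p = 0.143 and 0.209).

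Replication protein A, which coats single-stranded DNA at the fork, divided by subunit. RPA2 had 46.8, 42.5 and 46.6 CPM in FaDu and 71.5, 64.5 and 74.8 CPM in shNSUN2 (log2 fold 0.63, SE 0.12, edgeR adjusted p = 0.0115), a call lost without FaDu replicate 2 or 3. RPA1, the large DNA-binding subunit, rose from 123 ± 5.09 to 173 ± 12.3 CPM (SD, n = 3), a call lost without any 1 of the FaDu libraries or shNSUN2 replicate 1. Neither gene was called without FaDu replicate 2 or 3. RPA3, the smallest subunit, was singled out after its values were seen: it had 29.99, 29.1 and 29.3 CPM in FaDu and 29.3, 27.0 and 30.5 CPM in shNSUN2. Its groups overlapped and the log2 fold of -0.02 (SE 0.12, edgeR adjusted p = 0.905) was the only one of the 51 below 0, turning to 0.02 without shNSUN2 replicate 2.

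Both genes of Okazaki fragment processing rose. FEN1, the nuclease that trims the flaps of lagging-strand fragments, had 104, 95.3 and 96.6 CPM in FaDu and 220, 181 and 268 CPM in shNSUN2 (log2 fold 1.18, SE 0.16, edgeR adjusted p = 0.00292). LIG1, the ligase that seals them, rose from 23.9 ± 3.47 to 46.6 ± 6.85 CPM (SD, n = 3).

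Of the genes for nucleotide supply RRM1, RRM2 and TYMS rose, and TK1 did not pass the test. RRM2, the small subunit of ribonucleotide reductase that rises in S phase, had 34.5, 32.7 and 34.2 CPM in FaDu and 83.2, 70.3 and 101 CPM in shNSUN2 (log2 fold 1.33, SE 0.15, edgeR adjusted p = 0.00183). The large subunit RRM1 rose less, by 0.62 on the log2 scale, and the ratio of RRM2 to RRM1 per length was 0.243, 0.223 and 0.253 in FaDu and 0.349, 0.339 and 0.493 in shNSUN2. The RRM1 call was lost without FaDu replicate 1 or 3. TYMS, which makes thymidylate, had 62.6, 56.5 and 50.5 CPM against 93.1, 91.9 and 110 CPM (log2 fold 0.80, SE 0.14, edgeR adjusted p = 0.00789). TK1, the cytosolic thymidine kinase of the salvage route, had 199, 141 and 129 CPM in FaDu and 188, 168 and 270 CPM in shNSUN2. FaDu replicate 1 was above 2 of the 3 shNSUN2 libraries, and the log2 fold was 0.42 (SE 0.22, edgeR adjusted p = 0.235).

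All 3 chromatin assembly genes and all 3 fork protection genes rose. CHAF1A, the large subunit of the histone chaperone CAF-1, had 49.0, 47.8 and 44.4 CPM in FaDu and 96.8, 85.1 and 112 CPM in shNSUN2 (log2 fold 1.06, SE 0.14, edgeR adjusted p = 0.00278). Its partner CHAF1B and the histone chaperone ASF1B had log2 folds of 0.87 and 0.91. TIMELESS, which with TIPIN links the helicase to the polymerases, had 89.6, 94.6 and 93.6 CPM against 149, 149 and 144 CPM (log2 fold 0.67, SE 0.102, edgeR adjusted p = 0.00514). TIPIN and the checkpoint mediator CLSPN had log2 folds of 1.09 and 0.93. CHAF1B and CLSPN lost the call without FaDu replicate 2 or 3, and TIPIN without FaDu replicate 3 or shNSUN2 replicate 1.

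**Figure D3:**
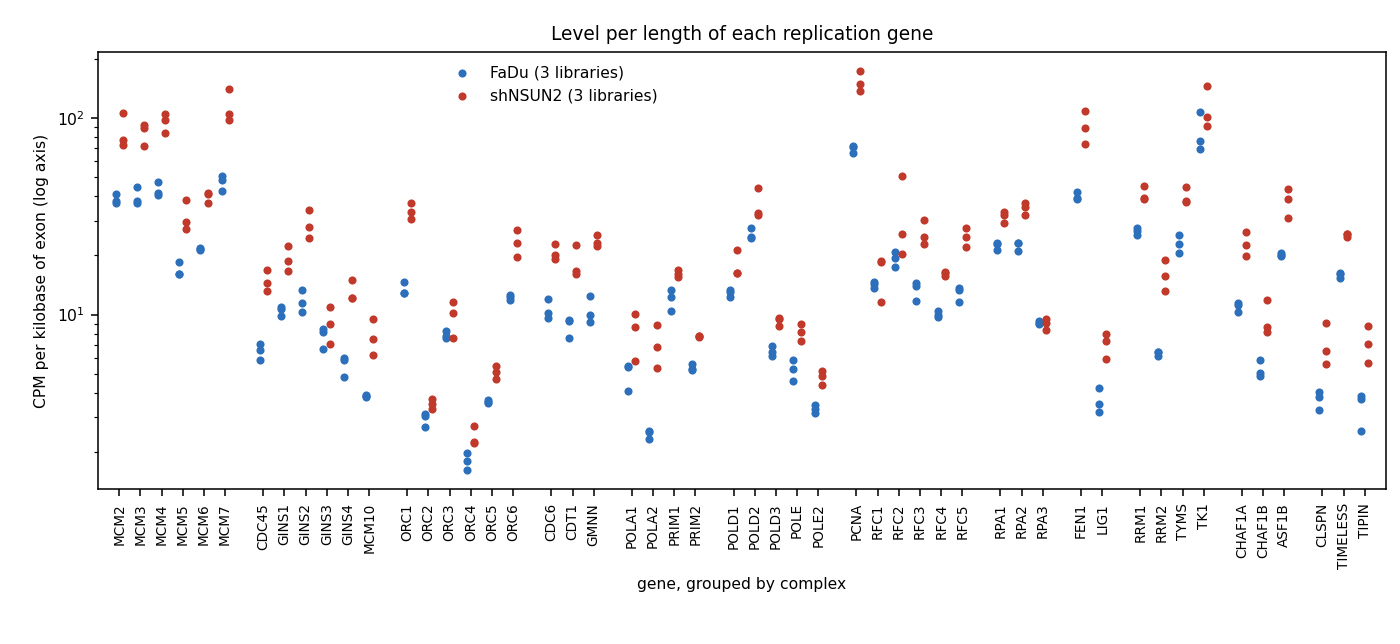
CPM per kilobase of exon (vertical log axis) for each gene in every library, FaDu in blue and shNSUN2 in red, grouped by complex along the horizontal axis. PCNA and TK1 have the highest FaDu means, at 69.7 and 84.0, and ORC4 the lowest, at 1.801.

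Across the 51 genes the FaDu level per length spanned from 1.801 ± 0.169 CPM per kilobase for ORC4 to 84.0 ± 20.1 for TK1 (SD, n = 3). The low end depends on the length used: ORC4 has 8915 bases of annotated exon, and its FaDu mean of 16.1 CPM was above the 9.28 CPM of TIPIN. The PCNA mean of 69.7 ± 3.34 lay within 1 SD of TK1, so the order of these highest genes is not resolved. The size of the rise had little relation to that level: Spearman's rho across the 51 genes was 0.107, a description over genes of the same 6 libraries. With the GC content of the longest transcript it was 0.336 and with exonic length -0.104.

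The shNSUN2 library of replicate 3 differed from its partners in a way that followed GC content. It was the highest of its group in 29 of the 51 genes and the lowest in 12. The median GC content was 51.4% in the former and 43.1% in the latter. Its log2 difference from the mean of replicates 1 and 2 ranged from -0.68 (POLA1) to 1.14 (RFC2) and had a Spearman's rho of 0.741 with GC content over the 51 genes, beside 0.107 for the same difference among the FaDu libraries. These libraries share their genes, and no p is given. Without that library 44 of the 51 genes were called higher (10.5% of all genes called higher and 11.0% lower) with a median log2 fold of 0.80. With a correction for GC content and length 45 were called higher (14.7% and 11.5% of all genes) with a median of 0.94, and none was called lower in either fit.

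**Figure D4:**
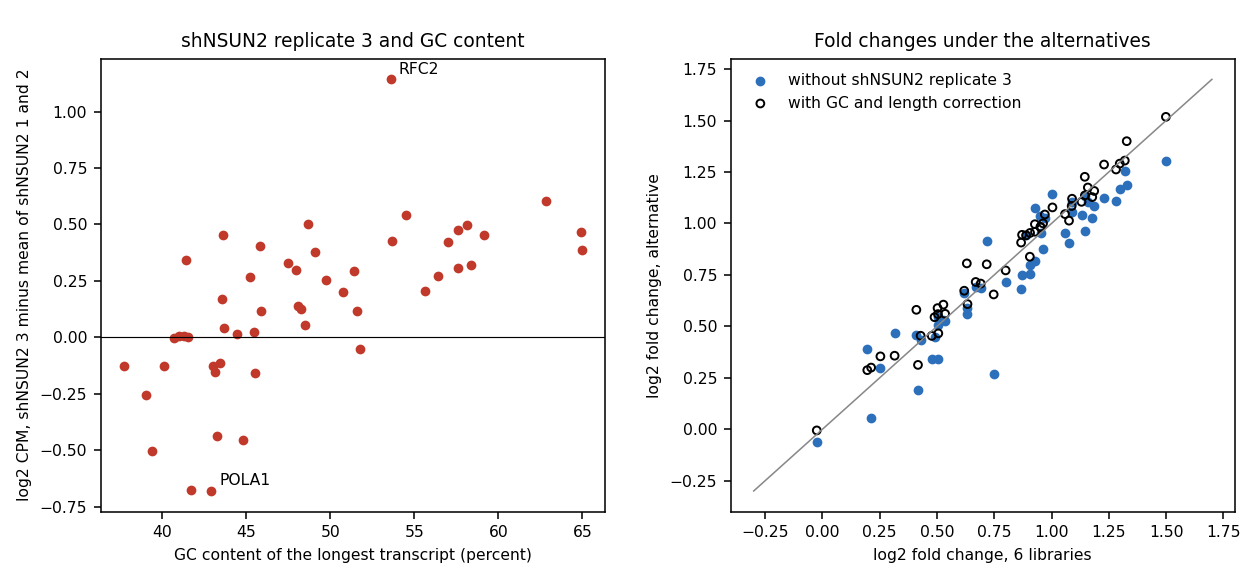
Left, log2 CPM of shNSUN2 replicate 3 minus the mean of replicates 1 and 2 (vertical axis) against the GC content of each gene's longest transcript (horizontal axis), 1 point a gene. Right, log2 fold change of the 51 genes without replicate 3 (filled) and with the GC and length correction (open) against the fit of all 6 libraries, with the line of equality. RFC2 and POLA1 mark the extremes at 1.14 and -0.68.

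Of 72 other genes of the replication pathway, 26 rose and 1 fell, with a median log2 fold of 0.39. Leaving out FaDu replicate 1, 2 or 3 gave 14, 12 and 10 called higher, and leaving out shNSUN2 replicate 3 gave 38 (10.5% of all genes). The shares of all genes called with a FaDu library left out are not given, here or for the lists below. Among firing factors and other MCM proteins 4 of 12 rose, including RECQL4, a helicase needed for origin firing, and MCMBP, a binding partner of MCM proteins (log2 folds 1.13 and 0.57). That class had 1 gene called without any 1 of the FaDu libraries and 9 without shNSUN2 replicate 3, and MCMBP was among those lost in the former. Among licensing control genes 2 of 9 rose: LRWD1, which binds ORC, and DTL, the receptor of the ubiquitin ligase that destroys CDT1 (1.07 and 0.73). The DTL call was lost without FaDu replicate 2 or 3 or shNSUN2 replicate 1. Of 16 other polymerase, clamp loader, topoisomerase and nuclease genes 6 rose. DSCC1 and CHTF18, subunits of the alternative clamp loader of sister chromatid cohesion, had log2 folds of 1.43 and 0.80. Of 12 replication-coupled chromatin genes 6 rose, with UHRF1, which brings maintenance DNA methylation to new strands, at 1.17 and TONSL, a reader of new histones, at 1.06. Of 10 checkpoint genes 4 rose, among them the phosphatase CDC25A at 1.61 (SE 0.23, edgeR adjusted p = 0.00398) and the kinase CHEK1 at 0.89. Without FaDu replicate 1, 2 or 3 the polymerase and nuclease class had 4, 3 and 2 called, and the chromatin and checkpoint classes had 3 and 2 each time. Without shNSUN2 replicate 3 these 3 classes had 10, 8 and 5.

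Nucleotide supply genes outside the 51 went both ways, with 4 of 13 higher and 1 lower. DTYMK, the thymidylate kinase, and NME1, a nucleoside diphosphate kinase, had log2 folds of 1.19 and 1.22. NME1 lies beside NME2, whose sequence is close to it, so its count is uncertain, and its call was lost without FaDu replicate 3. RRM2B, the alternative small subunit of ribonucleotide reductase that is induced by p53, fell: it had 69.0, 70.1 and 70.5 CPM in FaDu and 45.6, 48.3 and 26.9 CPM in shNSUN2 (log2 fold -0.79, SE 0.21, edgeR adjusted p = 0.0371). That call was lost without any 1 of the FaDu libraries or shNSUN2 replicate 1. Per length, the ratio of RRM2B to RRM2, a pair picked with results of these data known, was 1.92, 2.06 and 1.98 in FaDu and 0.526, 0.659 and 0.255 in shNSUN2. By this measure the more abundant RNA was RRM2B in all 3 FaDu libraries and RRM2 in all 3 shNSUN2 libraries. The lengths are those of all annotated exons, 5548 bases for RRM2B and 5323 for RRM2. Of the latter 1077 are shared with AC007240.1.

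Later cell cycle and repair genes had lower medians than the 51 genes, but not than the 72 others. Among 23 mitosis genes 8 were called higher and none lower, and their median log2 fold was 0.39. That count changed with the libraries used. Only 1 was called without FaDu replicate 1, 2 or 3, with medians of 0.37, 0.39 and 0.40. It was 4 without shNSUN2 replicate 1 (median 0.29), 16 without shNSUN2 replicate 3 (0.39) and 14 with the GC and length correction (0.39). Of 20 genes of homologous recombination and the Fanconi pathway 10 were called higher and none lower, and the median was 0.58. Without FaDu replicate 1, 2 or 3 it was 2, 3 and 2 that were called (medians 0.57, 0.62 and 0.59), and 5 without shNSUN2 replicate 1 (0.53). None of these genes rose 2-fold, against 17 of the 51 replication genes, and the share of all tested genes that did is not given. The difference between the lists was not tested.

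**Figure D5:**
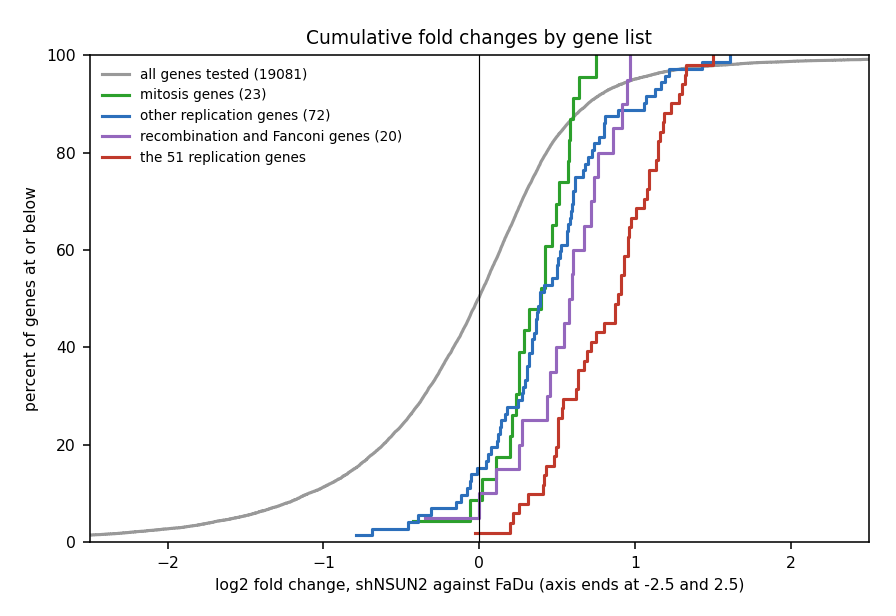
Percent of genes (vertical axis) at or below each log2 fold change (horizontal axis, cropped at both ends) for all 19081 tested genes and for each list. At its median the curve of the 51 replication genes crosses 0.89, those of recombination, other replication and mitosis genes 0.58, 0.39 and 0.39, and that of all genes -0.01.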

How the data were processed

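The authors deposited 1 table of estimated counts per Ensembl gene for 6 RNA-seq libraries of FaDu cells, 3 per group. Per the submitters' processing notes, HISAT2 2.0, StringTie 1.3.0 and Bowtie 0.12.2 were used, with no role given. The same notes name the mouse build mm8, which cannot belong to human gene identifiers, and the human build is not given in the sources used here. Nor is strand, so reads of overlapping genes cannot be told apart. Values were whole and were used as they stand.

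Symbols came from a gene name table (58472 identifiers) and GENCODE 29 (58552), which also gave exonic length and GC content. Genes were kept by filterByExpr (minimum count 10, minimum total 15) and tested with edgeR 4.0.16 in R 4.3.3 (TMM scaling, robust glmQLFit and glmQLFTest, group alone), two-sided, with Benjamini-Hochberg adjustment over 19081 genes. SE is the log2 fold change divided by the square root of F. CPM used TMM-adjusted totals. The pipeline was tested on simulated data. Alternatives used DESeq2 1.42.0, limma 3.58.1 (voom), mgcv 1.9.3 (GC and length offsets), other scalings and filters, a replicate block and each library left out.

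The 51 genes, the other lists and the rule for naming genes were chosen with earlier results of these data known, so the lists were given no test of their own. By that rule, values in every library were given for the genes with the smallest adjusted p of each complex (2 where it has at least 4 genes, otherwise 1), for the gene with the largest in complexes of at least 4, and for NSUN2. Among the other replication genes it named the 2 called higher with the smallest adjusted p in each class and all called lower.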

Additional observations from a re-analysis of the deposited data

How the results depend on the processing

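Over 15 alternatives (scaling, filter, tool, replicate block, GC and length correction, each library left out), the 39 genes called higher numbered 28 to 44 with 1 library left out and 35 to 45 otherwise, and none of the 51 was called lower. Shares of all genes called are given above only for the 6 libraries, without shNSUN2 replicate 3 and with the GC and length correction. In the other fits a change in calls among all genes and one particular to these genes cannot be told apart. Of the 39, 28 were called in every alternative. The others were ORC5, PRIM2, POLD3, POLE, POLE2, RPA1, RPA2, RRM1, CHAF1B, CLSPN and TIPIN, which lost the call in 2 to 7 of the 15. The median log2 fold of the 51 was 0.80 to 0.97 with 1 library left out and 0.81 to 0.94 otherwise, and 50 of the 51 stayed above 0 in all 15. With 1 library left out RPA3 ran from -0.062 to 0.024, the latter without shNSUN2 replicate 2. The replicate numbers gave no sign of pairing: deviations of same-numbered libraries correlated at -0.03, 0.02 and 0.01, and with the replicate block 35 genes were called, PRIM2, POLD3, POLE2, ORC5 and RPA1 not among them but POLA1 so, and 2 of the 23 mitosis genes. Of the 72 other replication genes, 10 to 38 were called higher and 0 to 2 lower with 1 library left out. Those called lower were 3 with upper-quartile scaling, without a filter, with the stricter filter, with DESeq2, or correcting for GC and length, and 2 with that correction in a replicate block. The cause was not tested. A gene outside the threshold is not shown to be the same in both groups.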

Other observations

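Of the 51 genes, 25 share exonic bases with another annotated gene, and 7 share over 10% of them with a gene that the table lists. TYMS shares 39.1% with ENOSF1 on the other strand, which was at 39.5 CPM in FaDu and 49.1 CPM in shNSUN2 (log2 fold 0.31, edgeR adjusted p = 0.0871). POLA2 shares 35.1% with AP000944.2, at 0.268 and 0.0379 CPM, and TIPIN 21.0% with the pseudogene RPL9P25, at 3.49 and 2.94 CPM. MCM2 shares 22.7% with the antisense gene AC023593.1, which was at 3.81 and 8.70 CPM (log2 fold 1.19, edgeR adjusted p = 0.0684), beside 189 and 418 CPM for MCM2 itself. GINS4 shares 21.2% with AC009630.2, at 0.122 and 0.187 CPM. PRIM1 shares 14.9% with AC117378.1, listed at 0 in FaDu and at 3.01 CPM in shNSUN2, and GINS3 10.9% with AC009118.2, at 1.09 and 1.20 CPM. Processed pseudogenes named after PCNA, RFC3, RFC5, FEN1 and TYMS were at 0 in both groups. Those of POLD2, RPA2 and RRM2 had at most 0.556 CPM.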
